A study of Mus musculus with 4 samples.

Results

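The Bcl-2 family genes that set the threshold for mitochondrial cell death were examined in mouse bone marrow-derived macrophages that had been kept with necrotic fat. The 10 genes were Bcl2, Bcl2l1, Mcl1, Bax, Bak1, Bcl2l11, Bid, Bad, Bbc3 and Pmaip1, chosen by symbol. All 10 were found among the 17013 genes of the deposited values, and all 10 passed the filter on low values (0.5 CPM, reads scaled to the size of the library, in 2 or more of the 4 libraries) that 12470 genes passed. Macrophages were grown from the femoral and tibial marrow of wild-type (WT) C57BL/6 male mice with the growth factor M-CSF, seeded on porous transwell inserts and kept for 24 h. All cultures received artificial necrotic bone fluid (aNBF), a freeze-thaw extract of bone that carries damage signals. Below the cells was either the fat control medium (Con), the middle layer of a freeze-thawed abdominal fat preparation, or the high-fat-containing medium (Fat), its top layer. Each medium had 2 libraries, whose values are given with replicate 1 before replicate 2, and the labels do not say whether they came from separate mice or cultures, so p-values measure only the spread between these libraries. Cultures without aNBF or without a fat preparation were not analysed here, so every difference sets the top layer against the middle layer.

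BCL-2 family proteins meet at the mitochondrial outer membrane. The guardians BCL-2, BCL-XL (gene Bcl2l1) and MCL-1 hold the executioners BAX and BAK (gene Bak1) in check, and executioners that escape open pores that let cytochrome c out and start the caspase cascade. The BH3-only proteins BIM (Bcl2l11), BID, BAD, PUMA (Bbc3) and NOXA (Pmaip1) sense stress and either neutralise guardians or activate executioners. Macrophages are long-lived cells that need M-CSF signalling and MCL-1 or BCL-XL to survive, and much of the control of these proteins lies in phosphorylation, cleavage and turnover, which RNA does not show.

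The libraries held between 33573852 and 40785872 reads on genes, and a single read was worth between 0.0244 and 0.0295 CPM. The 10 genes had between 139 and 31064 reads in a library. All 8 macrophage markers in the table passed the filter, at a summed 33920 to 35962 CPM in Con and 26918 to 28504 CPM in Fat. Lyz2 made up most of that sum (28721 and 26819 CPM in Con, 21516 and 20347 CPM in Fat), and Mertk and Fcgr1 were called lower in Fat (limma, adjusted p-value under 0.05 over all genes tested). Emr1 was also lower in both Fat libraries (1216 and 1141 CPM in Con, 1064 and 1000 CPM in Fat). So was Csf1r (1852 and 1638 CPM in Con, 1539 and 1477 CPM in Fat). Cd14 likewise was at 288.1 and 259.9 CPM in Con and at 249.2 and 242.5 CPM in Fat. Lyz2, Emr1, Csf1r and Cd14 were not called. Cd68 (777.7 and 870.1 CPM in Con, 892.4 and 864.0 CPM in Fat) and Itgam overlapped between media. Some markers of fat cells moved with the medium. Adipoq, Lep, Plin1, Cidec, Retn and Cfd had at most 3 reads in each Con library and 5 to 67 reads in each Fat library. Only 3 of the 8 adipocyte markers passed the filter, of which 2, Cidec and Pnpla2, were called higher in Fat. Cidec passed it only through its Fat libraries (0 and 0.0533 CPM in Con, 1.795 and 1.146 CPM in Fat). Its call is thus not independent of the filter. The summed level of the 8 was 319.4 to 348.2 CPM in Con and 367.6 to 370.2 CPM in Fat, most of it Pnpla2 (130 and 139.7 CPM in Con, 183.5 and 192.3 CPM in Fat) and Fabp4, which was the lower one in Fat (189.2 and 208.4 CPM in Con, 180.0 and 175.5 CPM in Fat) and was not called. The 4 T cell markers in the table summed to 8.90 to 10.2 CPM in Con and 6.07 to 6.19 CPM in Fat, and those of B cells to 22.5 to 23.5 CPM in Con and 18.0 to 21.8 CPM in Fat. The 3 erythroid markers in the table, 2 alpha globins and a beta globin, had at most 2 reads in a library. Stromal markers summed to 613.8 to 637.7 CPM in Con and 512.5 to 656.4 CPM in Fat, with Dcn called lower in Fat (2.68 and 2.75 CPM in Con, 1.34 and 1.66 CPM in Fat). Most of that sum was Col1a1 and Col1a2. Col1a1 overlapped between media (195.2 and 214.8 CPM in Con, 175.6 and 253.5 CPM in Fat). Col1a2 was lower in both Fat libraries (314.2 and 321.2 CPM in Con, 254.8 and 311.3 CPM in Fat), as were Col3a1 and Pdgfra, and none of them was called. Neutrophil markers summed to 289.7 to 332.6 CPM in Con and 287.3 to 291.3 CPM in Fat, and endothelial markers to 4.58 to 6.28 CPM in Con and 6.89 to 7.56 CPM in Fat. The summed macrophage, adipocyte, T cell, B cell and endothelial markers did not overlap between media. Among single genes, 55.6% of all those tested did not overlap. The part of other cells in the differences below was not tested, and in bulk RNA fewer cells of a type and less RNA per cell cannot be told apart.

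Per length (TPM, which is scaled for gene length as well as library size), the levels of the 10 genes spanned from 4.18 to 497.9 TPM over the 4 libraries. Mcl1 was the most abundant, with 479.6 and 422.0 TPM in Con and 497.9 and 481.2 TPM in Fat. Bax came next with 287.0 to 310.0 TPM, followed by Bak1 with 85.7 to 106.4 TPM and Bcl2l1 with 57.2 to 71.1 TPM. Among BH3-only genes the order was Bid (43.5 to 50.2 TPM), Bad (37.2 to 39.5 TPM), Bcl2l11 (18.2 to 22.7 TPM), Pmaip1 (9.04 to 13.3 TPM) and Bbc3 (4.18 to 7.35 TPM). Bcl2, after which the family is named, was the lowest of the 10 by mean, at 4.77 to 5.91 TPM. Only Bbc3 and Bcl2 overlapped as neighbours in this order. The other neighbours were separated in all 4 libraries.

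**Figure D1:**
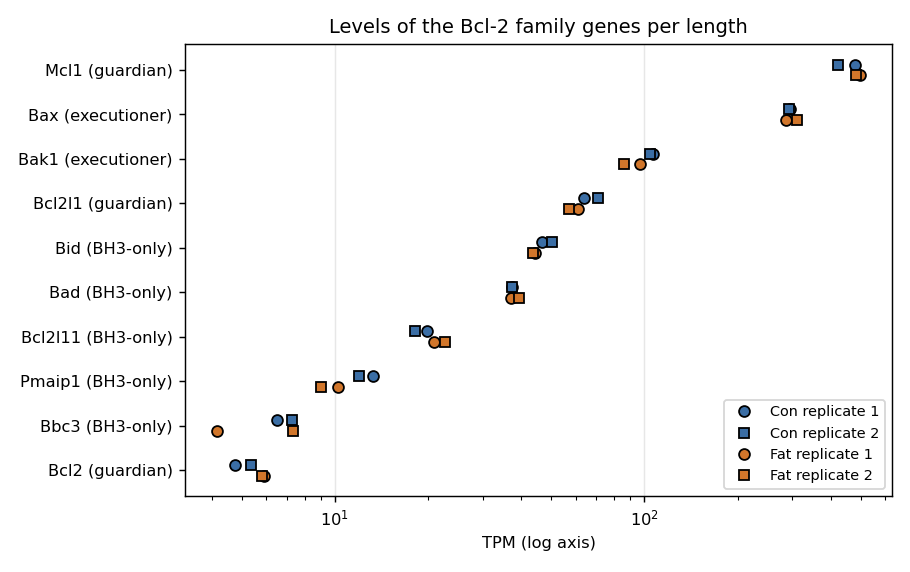
Levels of the 10 Bcl-2 family genes per length, in TPM on a log axis, ordered by the mean over the 4 libraries. Blue marks are Con and orange marks are Fat, circles replicate 1 and squares replicate 2. Mcl1 (422.0 to 497.9 TPM) and Bax (287.0 to 310.0 TPM) lie far above Bcl2 (4.77 to 5.91 TPM).

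Mcl1 made up 84.7% to 87.5% of the summed TPM of the 3 guardians among the 10 genes in Con and 88.1% to 88.4% in Fat. Bax made up 73.4% to 73.8% of the executioner TPM in Con and 74.8% to 78.3% in Fat. By role, these guardians held 48.8% to 51.1% of the summed TPM of the 10 genes in Con and 51.2% to 53% in Fat. Executioners held 37.3% to 38.9% in Con and 36.0% to 37.3% in Fat, and BH3-only genes 11.5% to 12.2% in Con and 11% to 11.5% in Fat. Within the 10, guardians made up about as much RNA as executioners and BH3-only genes together in both media. Family genes outside the 10 are not in these sums. Bcl2a1b, a gene for the guardian A1, was at 563.1 and 590.5 TPM in Con and at 553.7 and 549.4 TPM in Fat. That was above Mcl1 in every library, although 67.8% of the 75-base stretches of Bcl2a1b occur unchanged in other genes. The balance thus holds for the 10 genes and not for the whole family. These shares describe RNA and carry no test.

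The comparison of Fat with Con asked whether these genes differ between cultures over the top layer and cultures over the middle layer. Uptake of fat was not measured in these libraries. Of the 10, 1 was called lower in Fat (Pmaip1) and 0 were called higher, at an adjusted p-value under 0.05. Over all 12470 genes tested 9.0% were called, 5.0% lower and 3.99% higher, so 1 of 10 is near the share of all genes and is not a result about the family. With edgeR's quasi-likelihood test on the recovered reads, the count was likewise 1 lower and 0 higher (9.13% of all genes, 5.2% lower and 3.93% higher). Before adjustment, 4 of the 10 were lower and 1 higher at a limma p-value of 0.05 or less, a level that 24.1% of all genes passed (12.4% lower and 11.8% higher). In 6 of the 10 genes the Fat and Con libraries did not overlap, 4 with Fat below and 2 with Fat above Con, against 55.6% of all genes tested (26.2% below and 29.4% above). The median log2 fold change of the 10 was -0.09, against 0.01 for all genes tested. No member differed by more than 0.42 on the log2 scale.

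**Figure D2:**
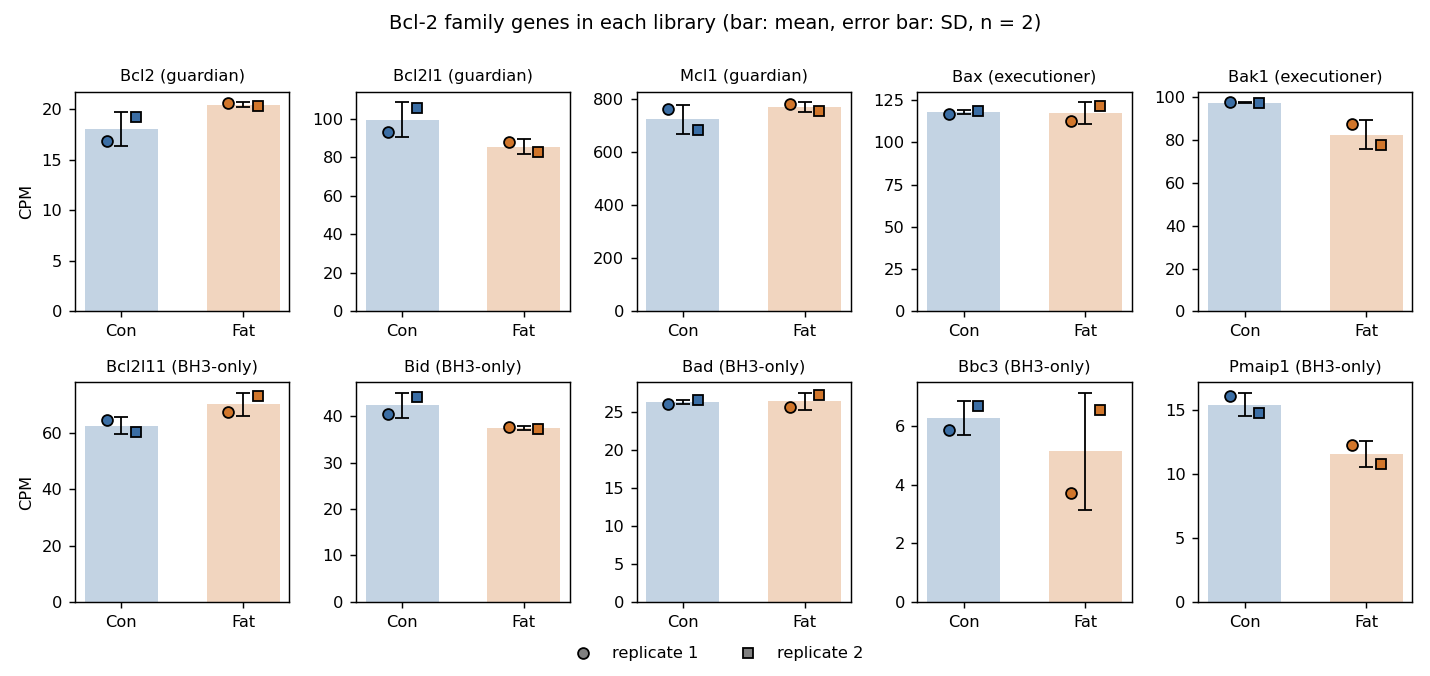
CPM of each of the 10 genes in each library, on axes that start at 0. Bars are means and error bars SD (n = 2), with circles for replicate 1 and squares for replicate 2. Pmaip1 lies at 10.8 and 12.3 CPM in Fat, below both Con libraries, while Bax and Bad overlap between media and Bbc3 is spread from 3.72 to 6.56 CPM within Fat.

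Among the guardians, Mcl1 encodes the short-lived protein that BH3-only NOXA binds selectively. Its level was 764.4 and 685.8 CPM in Con against 783.3 and 757.7 CPM in Fat. The groups overlapped, since Fat replicate 2 lay below Con replicate 1. The log2 fold change was 0.09 (95% interval -0.08 to 0.26, adjusted p = 0.508). Bcl2l1 encodes BCL-XL, and was at 93.0 and 105.8 CPM in Con and at 88.1 and 82.6 CPM in Fat. Both Fat libraries lay below both Con libraries, by 14.1% on the means. Its log2 fold change of -0.22 (standard error 0.07, 95% interval -0.39 to -0.04) was not called (adjusted p = 0.124), and without Con replicate 1 it was -0.31 (adjusted p = 0.0457). With a library left out, its medium has a single library that is assumed to vary like the other medium, so a call gained that way does not add support. Bcl2 was at 16.9 and 19.3 CPM in Con and at 20.6 and 20.3 CPM in Fat, with Fat the higher one. Its libraries did not overlap either, but Con replicate 2 lay close to the Fat libraries, and the log2 fold change of 0.18 (95% interval -0.02 to 0.39) was not called (adjusted p = 0.258).

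Of the executioners, Bax was at 116.8 and 118.7 CPM in Con and at 112.5 and 121.6 CPM in Fat. The Fat libraries lay on either side of Con, and the 95% interval of the difference ran from -0.15 to 0.13 on the log2 scale (adjusted p = 0.95). Of the 75-base stretches of Bax transcripts 8.57% occur unchanged in another gene model, and none of those of the other 9 members do. Bak1 was at 97.3 and 97.2 CPM in Con and at 87.3 and 77.5 CPM in Fat. Its Con replicates were nearly equal and both Fat libraries lay below them, by 15.3% on the means. The log2 fold change was -0.24 (standard error 0.07, 95% interval -0.40 to -0.08), which was not called (adjusted p = 0.0738). Without Fat replicate 1, which leaves 1 Fat library, it was -0.33 (adjusted p = 0.0333).

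Pmaip1, which encodes NOXA, a BH3-only protein induced by p53 and by several stress pathways, was the member called. Con libraries held 16.1 and 14.8 CPM of it (546 and 555 reads) and Fat libraries 12.3 and 10.8 CPM (459 and 444 reads). Both Fat libraries lay below both Con libraries. The mean fell from 15.4 ± 0.923 CPM (SD, n = 2) in Con to 11.6 ± 1.04 CPM (SD, n = 2) in Fat, lower by 25.1%. The log2 fold change was -0.42 (standard error 0.10, 95% interval -0.65 to -0.18, adjusted p = 0.0432). The call was lost without Con replicate 1 (log2 fold change -0.36, adjusted p = 0.165) and without Fat replicate 2 (-0.33, adjusted p = 0.197). It was also lost with the TPM values (-0.38, adjusted p = 0.0857), with no filter (adjusted p = 0.0592) and without the mean-variance trend (adjusted p = 0.13). Over the 13 alternatives its log2 fold change stayed between -0.51 and -0.33, and 8 of them made the call.

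The other BH3-only genes were not called. Bcl2l11 encodes BIM, the death signal of cytokine withdrawal in many blood cells, and was at 64.7 and 60.6 CPM in Con and at 67.4 and 73.2 CPM in Fat. Both Fat libraries were the higher ones, with a log2 fold change of 0.16 (95% interval 0.01 to 0.32, adjusted p = 0.183). Bid, which links death receptors to mitochondria once caspase-8 cleaves it, was at 40.4 and 44.2 CPM in Con and at 37.7 and 37.2 CPM in Fat. Both Fat libraries were the lower ones, with a log2 fold change of -0.18 (95% interval -0.33 to -0.02, adjusted p = 0.165). Bad, whose protein is held inactive by survival kinases, was at 26.0 and 26.5 CPM in Con and at 25.5 and 27.1 CPM in Fat. Its Fat libraries lay on either side of Con, and the 95% interval ran from -0.16 to 0.17 on the log2 scale (adjusted p = 0.984).

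Bbc3, which encodes PUMA, had the largest standard error of the 10, 0.24. It was at 5.87 and 6.69 CPM in Con, at 3.72 CPM (139 reads) in Fat replicate 1 and at 6.56 CPM (269 reads) in Fat replicate 2. The exact 95% Poisson intervals of the Fat libraries, 3.13 to 4.4 CPM and 5.80 to 7.39 CPM, were apart, so the Fat replicates differed by more than counting error. Such intervals describe counting alone, because without molecular identifiers PCR copies count as reads. Fat replicate 1 lay below both Con libraries and Fat replicate 2 between them. The log2 fold change was -0.33 (95% interval -0.90 to 0.23, adjusted p = 0.454). With 1 Fat library in the fit it was -0.74 without Fat replicate 2 (adjusted p = 0.0467) and 0.07 without Fat replicate 1 (adjusted p = 0.874), so the direction for Bbc3 rested on 1 library.

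**Figure D3:**
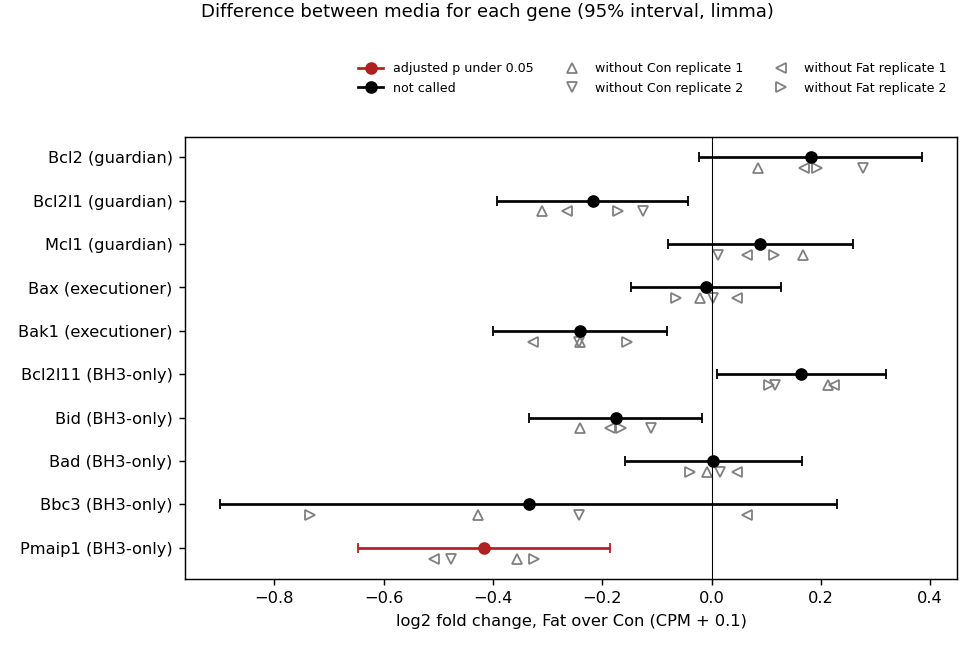
Log2 fold change of Fat over Con for each of the 10 genes, with its 95% interval from limma, in red where the adjusted p-value was under 0.05. Grey triangles are the values with each library left out in turn. Pmaip1 (-0.42) is the gene in red, and the triangles of Bbc3 run from -0.74 to 0.07.

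A pair of ratios set guardians against death genes per length. The ratio of Bcl2 to Bax TPM was 0.0162 and 0.0182 in Con against 0.0206 and 0.0187 in Fat. All 4 libraries thus held far more Bax than Bcl2 RNA, and the Fat ratio was the higher one by 0.19 on the log2 scale. The ratio of Mcl1 to Pmaip1 TPM was 36.1 and 35.3 in Con and 48.5 and 53.3 in Fat, higher by 0.51 on the log2 scale. The groups did not overlap for either ratio, and the exact two-sided permutation p-value was 0.333 for each, the smallest that 2 libraries against 2 can give. The second ratio holds the member that was called, so it is not separate from the fall of Pmaip1.

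Outside the 10, the gene whose profile over the 4 libraries lay nearest to that of Pmaip1, by Euclidean distance of the centred log2 values, was Zufsp, with a distance of 0.0115. It was at 21.0 and 19.2 CPM in Con and at 15.9 and 14.1 CPM in Fat. Inhbb and Spag5 followed at distances of 0.0209 and 0.0259.

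Of 16 further family genes listed, 14 were in the table and 11 were tested, of which 2 were called lower and 1 higher (median log2 fold change 0.04). Bnip3, a mitochondrial receptor for autophagy that oxygen lack induces, rose from 20.8 and 17.8 CPM in Con to 26.3 and 25.3 CPM in Fat (log2 fold change 0.42, adjusted p = 0.032), a call lost without Con replicate 2 and without either Fat replicate (adjusted p up to 0.0853). Pseudogenes share 18.7% of the 75-base stretches of Bnip3. Bcl2a1a, a gene for the inflammation-induced guardian A1, fell from 6.66 and 7.70 CPM to 4.45 and 3.51 CPM (log2 fold change -0.84, adjusted p = 0.0185). Bcl2a1d, its near copy, fell from 323 and 375 reads in Con (9.76 ± 0.334 CPM, SD, n = 2) to 247 and 251 reads in Fat (6.37 ± 0.350 CPM, SD, n = 2) (log2 fold change -0.61, adjusted p = 0.0156). Both calls were lost without Fat replicate 2 (adjusted p = 0.0534 and 0.0572). The reads of these A1 genes are uncertain, since 55.0% of the stretches of 75 bases in Bcl2a1a transcripts and 67.1% of those in Bcl2a1d occur unchanged in other genes, Bcl2a1b among them. Bcl2a1b held 92.2% to 95.2% of the summed reads of the 3 and was not called (log2 fold change -0.10, adjusted p = 0.357). Together the 3 genes were at 212.8 and 227.9 CPM in Con and at 202.0 and 199.2 CPM in Fat, with a mean of 220.4 ± 10.7 CPM against 200.6 ± 1.94 CPM (SD, n = 2). Without the Bcl2a1 genes, 1 of 7 tested family genes was called, and it was Bnip3. Bik, Bcl2l14 and Bcl2l15 had at most 11 reads in a library and were not tested.

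Of 9 inhibitor of apoptosis genes, 1 was called lower and 0 higher, with 3 lower and 2 higher at the unadjusted p-value (median log2 fold change -0.08). Birc3, which encodes the NF-kB target cIAP2, fell from 65.7 and 55.2 CPM to 46.3 and 45.5 CPM (log2 fold change -0.39, adjusted p = 0.0326). Its call was lost without Con replicate 1 and without either Fat replicate (adjusted p up to 0.096), and with the TPM values (adjusted p = 0.0869).

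In the death receptor pathway 13 of 14 genes were tested, of which 2 were called lower and 0 higher (6 lower and 0 higher at the unadjusted p-value, which 12.4% and 11.8% of all genes passed). Of its log2 fold changes 12 of 13 were below 0 (median -0.16), against 5790 of 12470 over all genes tested. Tnfsf10, which encodes the death ligand TRAIL, fell from 4.75 and 4.13 CPM in Con to 1.74 and 1.15 CPM in Fat. Its log2 fold change of -1.58 (standard error 0.22, adjusted p = 0.00771) was called with each library left out in turn. Mlkl, which encodes the pore protein of necroptosis, fell from 56.0 and 53.6 CPM to 42.2 and 32.9 CPM (log2 fold change -0.56, adjusted p = 0.0243), a call lost without Con replicate 1 (adjusted p = 0.0512) and with the TPM values (adjusted p = 0.0565). Fasl had 7 to 13 reads in a library and was not tested. None of the genes named as called in these lists was called when the dependence of the spread on the level (the mean-variance trend) was not modelled, with adjusted p-values from 0.0831 to 0.158. The counts of all these lists stand on few genes and are descriptions beside the 9.0% of all genes called.

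**Figure D4:**
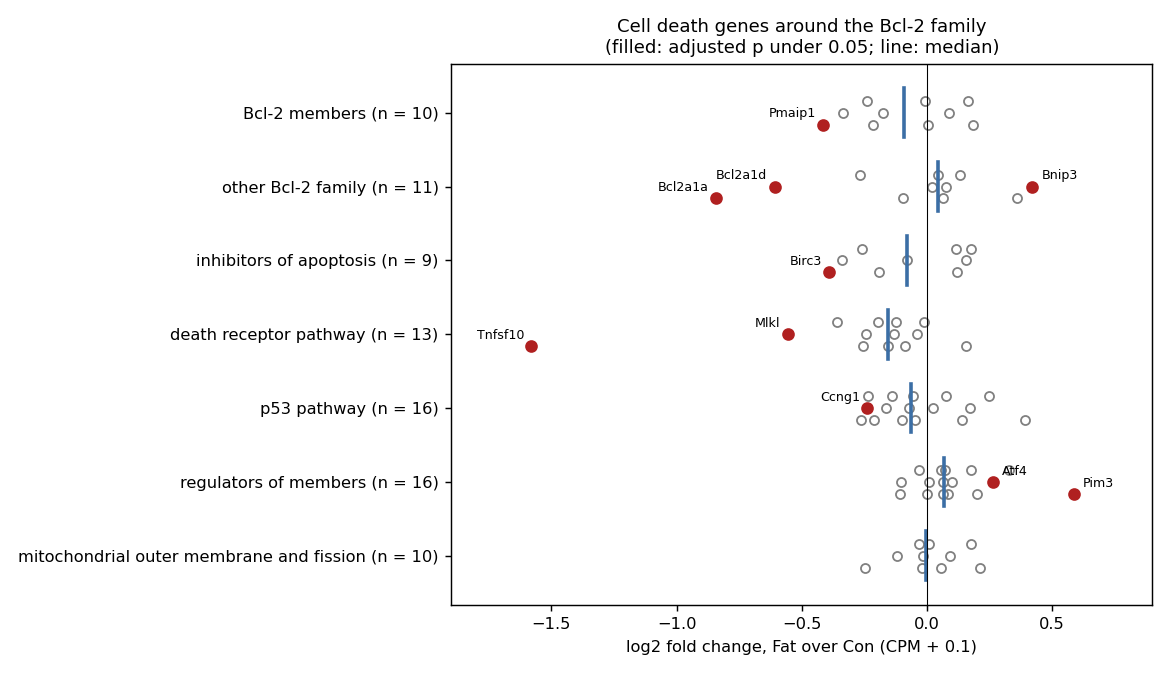
Log2 fold change of Fat over Con for each tested gene of the Bcl-2 family and of 6 lists around it, with filled red points for an adjusted p-value under 0.05 and a blue line at the median of the list. Tnfsf10 (-1.58) lies far to the left of the other genes, and the medians of all lists lie between -0.16 and 0.07.

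Promoter sequence was read as a description. The motifs, like the genes, were chosen with earlier results of these data known. Some genes have several windows, and 2 of those of Bbc3 overlap, so the windows are not separate cases. Windows on 1 chromosome were left out of the search, for the members and for all genes alike. The other RefSeq start sites on build GRCm38.p6 gave 15 windows of the 250 bases before a start for 9 of the 10 genes. No window of Pmaip1 was among them, so its promoter was not searched. GC content ran from 47.6% to 81.6%, lowest in a Bcl2l1 window and highest in a Bbc3 window. The forkhead motif TGTTTAC, searched on both strands, was in 2 of the 15 windows, upstream of Bcl2l11 and Bbc3, and in 3.17% of the 32851 windows of that length. The p53 half-site was in 1 window, that of Bax (7.13% of all windows), and the NF-kB site, whose matches on the strands overlap for Bbc3, was in windows of Bbc3 and Bcl2l1 (7.25%). The letters TGACGT of the cAMP response element were in the Bcl2 window (6.47%), while GAAANNGAAA of the interferon response element and TATAAA of the TATA box were in none of the 15 (2.98% and 12.4% of all windows). The windows with the forkhead motif and with the p53 half-site are given 5′ to 3′ on the strand of the gene, with these matches in capitals, since FOXO factors and p53 are the textbook inducers of these genes.
Bcl2l11, chr2:128125788-128126037, plus strand: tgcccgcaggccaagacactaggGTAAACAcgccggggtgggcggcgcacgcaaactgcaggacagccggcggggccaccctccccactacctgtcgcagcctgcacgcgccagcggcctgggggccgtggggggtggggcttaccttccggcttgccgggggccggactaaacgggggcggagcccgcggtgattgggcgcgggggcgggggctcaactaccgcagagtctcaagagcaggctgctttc
Bbc3, chr7:16310011-16310260, plus strand: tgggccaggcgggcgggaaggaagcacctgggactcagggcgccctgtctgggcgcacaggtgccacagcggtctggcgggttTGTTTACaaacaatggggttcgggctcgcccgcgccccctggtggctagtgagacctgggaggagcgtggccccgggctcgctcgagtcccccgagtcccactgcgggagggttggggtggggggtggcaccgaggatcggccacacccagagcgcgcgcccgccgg
Bax, chr7:45466899-45467148, minus strand: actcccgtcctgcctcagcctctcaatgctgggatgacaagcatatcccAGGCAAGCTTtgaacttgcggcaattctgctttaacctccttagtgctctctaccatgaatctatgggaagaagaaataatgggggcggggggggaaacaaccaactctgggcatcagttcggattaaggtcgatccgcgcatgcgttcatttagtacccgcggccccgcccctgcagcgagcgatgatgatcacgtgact
In the Bcl2l11 window the forkhead motif lies on the opposite strand and is read there as its reverse complement. Bcl2l11 and Bbc3, which share the motif, had log2 fold changes of 0.16 and -0.33, neither of them called, and that of Bbc3 was 0.07 without Fat replicate 1. For Foxo3, picked out after its values were seen, the difference was 0.20 on the log2 scale (adjusted p = 0.276). Its libraries overlapped between media. Foxo1, the other FOXO gene listed, differed by 0.007 (adjusted p = 0.977) and overlapped as well. A match is a description of letters and not evidence of binding.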

How the data were processed

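RNA from the macrophages was made into 4 stranded mRNA libraries, 2 for Con and 2 for Fat, and sequenced as single reads of 75 bases. The authors deposited the values per gene symbol as CPM and as TPM. The submitters' processing notes name GRCm39, the deposited tables are named as iGenomes genes, and the aligner, counter and annotation version are not given in the sources used here, so no gene coordinates of the files are given. The authors' CPM values were whole multiples of 1 read in 100% of cases, within 0.01 reads, and reads were recovered from them.

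A gene was tested if 2 or more of the 4 libraries reached 0.5 CPM, which 12470 did. The test was limma 3.58.1 in R 4.3.3, with its trend option, applied to log2 values after adding 0.1 CPM, two-sided, with Benjamini-Hochberg adjustment over all of them. Fold changes on this scale understate those of low genes. All p-values without another name are adjusted limma values. Levels of different genes were compared in the deposited TPM values only. On the recovered reads edgeR 4.0.16 and DESeq2 1.42.0 were run as alternatives, and edgeR called 490 genes higher and 648 lower. Counting intervals cover counting error only. The methods were also run on simulated reads, with changes larger than those of the members and the same spread setting for all genes. That run therefore does not bear on the calls made here. Shared sequence was sought by exact matches in GENCODE vM21 transcripts, and promoters came from RefSeq.

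The members, lists and motifs were chosen with earlier results of these data known. The genes named are the 10 members, up to 5 called genes per direction in each list, otherwise the 2 with the largest change, and the 3 nearest profiles. Beside these, cell type markers, list genes too low to test and Bcl2a1b, which shares sequence with called genes, are named. Foxo1, Foxo3 and Vdac2 were picked out after their values were seen. Alternatives were another pseudocount, other filters, TPM, median-ratio scaling, a replicate block, no trend and each library left out in turn. The results of 1 further list of genes are not reported here, although the counts over all lists hold its genes.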

Additional observations from a re-analysis of the deposited data

How the results depend on the processing

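The 10 members gave 130 log2 fold changes over 13 alternatives each. Pmaip1 kept its direction in all 13, and was called in 8. Without a filter and without the mean-variance trend its log2 fold change was -0.42, and with TPM -0.38, and it was not called in any of these. Bax was at 0.0226 with TPM and Bad at -0.00534 with median-ratio scaling, -0.00039 with edgeR and -0.0044 with DESeq2, each with the sign turned and none called. With each library left out in turn the log2 fold changes ran from -0.51 to -0.33 for Pmaip1, -0.31 to -0.12 for Bcl2l1, -0.33 to -0.16 for Bak1, -0.74 to 0.0655 for Bbc3, -0.0654 to 0.0466 for Bax and -0.0400 to 0.0470 for Bad. Those of Bcl2 (0.09 to 0.28), Mcl1 (0.01 to 0.17), Bcl2l11 (0.11 to 0.22) and Bid (-0.24 to -0.11) kept their sign and were not called. Without Con replicate 2 Bax was at 0.0023 and without Fat replicate 1 at 0.0466, and Bad was at -0.0084 without Con replicate 1 and at -0.0400 without Fat replicate 2. In these fits the lone library of a medium is assumed to vary like the other medium. The Bcl2 to Bax difference ran from 0.11 to 0.28 and that of Mcl1 to Pmaip1 from 0.44 to 0.58.

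The members called lower in Fat were 1, with 0 without a filter, with TPM and without the trend. With a library left out the called member was not always Pmaip1. Its call was lost without Con replicate 1 and without Fat replicate 2, where another member was called instead. At the unadjusted p-value 4 members were lower and 1 higher. Over all genes 498 were called higher and 624 lower, with 19 and 12 without the trend and 1467 and 1541 at the unadjusted p-value. With TPM 425 were higher and 366 lower, and with a library left out 216 to 519 were higher and 313 to 612 lower. Of the list genes 3 were called higher and 8 lower, with 0 and 0 without the trend, 11 and 22 at the unadjusted p-value, 4 lower with TPM, and 0 to 2 higher and 2 to 12 lower with a library left out. Fat replicate 2 was the library without which the largest number of the 11 list genes, 9, lost their call. The causes were not tested.

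The labels number the replicates without saying that a number marks a shared mouse or day. Deviations from the group means correlated at 0.20 between libraries of one number, over 12470 genes and at 0.339 over 9760 of them, those averaging 5 CPM or more. Adding that number as a replicate block gave 1278 higher and 1242 lower genes, of the list genes 10 and 19, and of the members 0 and 3, namely Pmaip1 (adjusted p = 0.000972), Bak1 (-0.24, adjusted p = 0.00259) and Bcl2l1 (-0.22, adjusted p = 0.0102). Only 1 residual degree of freedom per gene is left in that fit.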

Other observations

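Genes that act on the members from outside were listed as well. Of 16 such regulators tested, 2 were called higher in Fat and 0 lower (at the unadjusted p-value also 2 and 0), against 3.99% and 5.0% of all genes tested (11.8% and 12.4% unadjusted), with a median log2 fold change of 0.07. Pim3, a survival kinase whose family phosphorylates BAD, rose from 9.44 and 9.65 CPM in Con replicates 1 and 2 to 12.8 and 16.1 CPM in Fat replicates 1 and 2 (a difference of 0.59 ± 0.12 SE on the log2 scale, adjusted p = 0.0282). That call was lost without Con replicate 1 and without Fat replicate 2 (adjusted p up to 0.113). Atf4, the transcription factor of the integrated stress response, rose from 144.6 and 140.0 CPM to 172.6 and 168.7 CPM (0.26 ± 0.05 SE, adjusted p = 0.0249). Its call was lost without Con replicate 2 and without either Fat replicate (adjusted p up to 0.0913).

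Of 17 genes of the p53 pathway 16 were tested, of which 1 was called lower and 0 higher (6 and 3 at the unadjusted p-value), against the same shares of all genes, with a median log2 fold change of -0.06. Ccng1, a p53 target that encodes cyclin G1, fell from 260.7 and 253.6 CPM in Con to 220.9 and 215.0 CPM in Fat (log2 fold change -0.24, adjusted p = 0.0349), a call lost without Con replicate 1 and without either Fat replicate (adjusted p up to 0.187). Perp had 3 to 9 reads in a library and was not tested. Of 10 genes of the mitochondrial outer membrane and of mitochondrial fission, fusion and cristae, 0 were called in either direction by limma, and 1 was lower and 2 higher at the unadjusted p-value. The members of that list with the largest differences were Oma1, a protease of the inner membrane (log2 fold change -0.25, adjusted p = 0.0747), and Mfn2, a fusion protein (0.21, adjusted p = 0.0739). Vdac2, the channel that holds BAK at the membrane, differed by 0.06 on the log2 scale (adjusted p = 0.634), a gene picked out after its values were seen.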
